A study of Mus musculus with 37 samples.

Results

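The 15 mammary glands described here carried a strong signal of lymph node genes, and they were set against the 22 other glands of the same experiment, 37 in all. They were chosen by measured values, as the arrays that were high in B lymphocyte genes, so the genes that separate them from the other glands are given as a description with no test. The 15 are called node-high and the 22 node-low. Each array came from 1 female C57BL/6 mouse, with RNA from the left and right thoracic glands pooled. Mice were 9 weeks old when they were randomised, and diet and activity were followed for 6 weeks. The 4 groups were calorie restriction of 30% with a running wheel (CR+EX), the same restriction without a wheel (CR), free feeding with a wheel (AL+EX) and free feeding without one (AL). Restricted mice got 70% of the calories and all of the other nutrients of AL mice. The node-high arrays were 3 of 9 CR+EX, 4 of 9 CR, 4 of 9 AL+EX and 4 of 10 AL animals, and a test found no difference in that share by diet group (exact test over the 4 groups, two-sided p = 1). All mice were of 1 strain and sex, and the labels name no altered gene. What limits the samples is that a whole gland mixes epithelium, fat, vessels and whatever else was cut out with it. Whether a gland held a node, or how much of it, is not in the labels.

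A lymph node is a capsule of lymphoid tissue in the path of the lymph, and in mice nodes lie embedded in or beside the mammary fat. Its cortex holds follicles of B lymphocytes, its paracortex holds T lymphocytes, and stromal cells there secrete the chemokines that keep the cells in place. Blood lymphocytes enter through high endothelial venules, whose mucin-like protein Glycam1 carries sugars that L-selectin on the lymphocyte binds, and macrophages line the sinuses through which the lymph leaves.

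The values were Affymetrix signal intensities, used as log2(signal + 16), and differences below are on that log2 scale, which understates the change of dim genes. The mean after trimming 2% was 500.2 on every array, to 1 decimal, while the median signal ran from 183.2 to 251.9 on node-high arrays and from 179.4 to 209.8 on node-low arrays. Centring each array on its median moved the median difference over all 9294 genes tested to -0.10, against 0.02 as deposited, so a difference of that size has no settled direction. The ratio of 3 prime to 5 prime Gapdh signal, a sign of RNA quality, was above 2 on 2 node-high arrays (CR+EX 1 and AL 8) and 3 node-low arrays. Numbers such as AL 8 name an animal within its group and carry no order. The animal numbers in the titles fall into 4 runs with gaps between them, and each run holds all 4 diet groups. All 8 arrays of the fourth run were node-high, against 7 of the 29 arrays of the earlier runs. No label calls these runs batches. Results are therefore also given within the earlier runs or with the run in the fit, and for the fourth run node class and run cannot be told apart.

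Both marker genes of the class were separated without overlap. Cd79b, a chain of the B cell receptor complex, had signals of 237.7, 782.7 and 1851.6 (lowest, median and highest) on node-high arrays, against 10.1, 56.8 and 109.5 on node-low arrays. Ms4a1, which encodes the B cell surface protein CD20, had 264.7, 917.3 and 2364.7 on node-high arrays, against 76.2, 107.1 and 148.0 on node-low arrays. The mean over 20 B lymphocyte genes ran from 7.66 to 9.57 on node-high arrays, against 6.43 to 7.04 on node-low arrays. Just inside the divide lay the node-high arrays CR+EX 1, at 7.66, and CR 7, at 7.70, and just outside it lay the node-low arrays AL 4, at 7.04, and AL+EX 4, at 7.02. Of 28 B lymphocyte genes listed, 24 were on the array, 20 passed the filter on low signal and 16 of those were at least 2-fold higher in node-high arrays. Of all genes, 149 of 9294 (1.6%) were 2-fold higher and 19 (0.204%) were 2-fold lower. The 2-fold higher genes numbered 95 (1.02%) when the earlier runs alone were used. With each array centred on its median, 71% of the 2-fold differences were higher, against 88.7% as deposited.

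Of all genes tested, Glycam1 had the largest difference. Its signal was 810.9, 3226.0 and 11374.1 on node-high arrays, against 2.7, 6.3 and 14.9 on node-low arrays, a difference of 7.11 ± 0.23 (SE) as log2(signal + 16). Every node-high array exceeded every node-low array by a wide margin, including CR 7, the node-high gland lowest in Glycam1. The difference was 7.63 within AL, 7.64 within AL+EX, 6.72 within CR and 6.34 within CR+EX, and 6.37 within the earlier runs. Lactating mammary epithelium also makes Glycam1, and the 6 milk protein genes tested had a median difference of -0.40, from Csn3, a casein, at -0.69 ± 0.20 to Wap, a whey protein, at 0.26 ± 0.12, with 2 of 6 positive. The other high endothelial venule genes tested did not reach 2-fold: Madcam1, an adhesion molecule for homing lymphocytes, was at 0.36 ± 0.13, and Chst2, Ackr1 and Selp were at 0.30, 0.16 and -0.20.

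**Figure D1:**
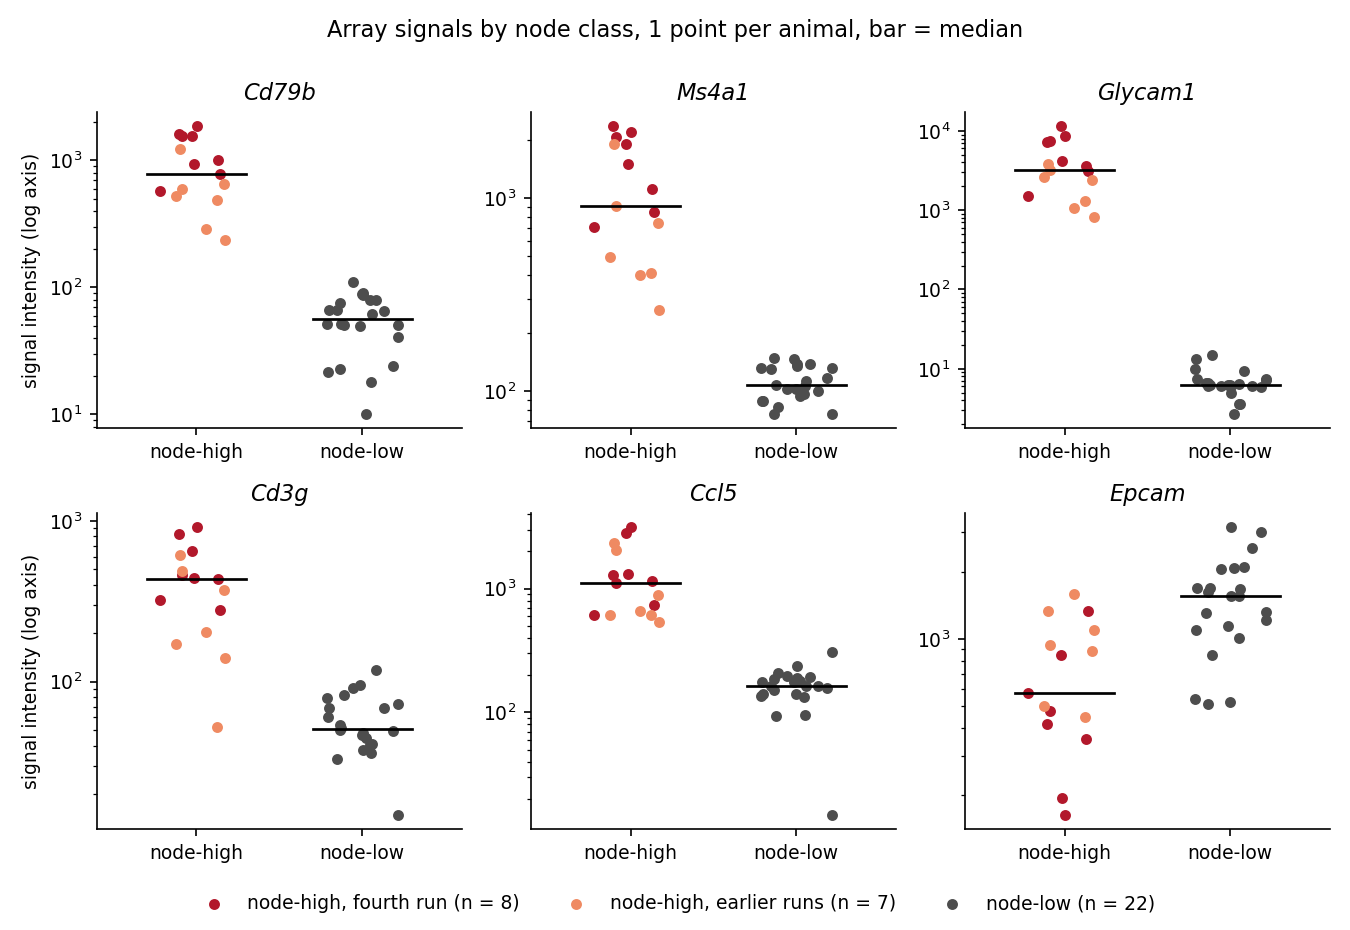
Signal intensity on a log axis for Cd79b, Ms4a1, Glycam1, Cd3g, Ccl5 and Epcam, with 1 point per animal, node-high arrays left and node-low arrays right, and bars at the medians. Glycam1 lies between 810.9 and 11374.1 in node-high glands, against 2.7 to 14.9 in node-low glands, while Epcam overlaps and is lower at the median in node-high glands.

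The RefSeq promoter windows of 3 of these genes, 250 bases before to 50 bases after the annotated start in GRCm38.p6, are shown because the genes differed together although different cell types use them. Glycam1 stands for high endothelium (chr15:103565032-103565331, minus strand), Cd79a for B cells (chr7:24897247-24897546, plus strand) and Il7r, the receptor for the survival factor interleukin 7, for T cells (chr15:9529827-9530126, minus strand). The capitals mark GGAAGT, or ACTTCC where it lies on the other strand, a form of the GGAA core that factors of the ETS family bind.
Glycam1: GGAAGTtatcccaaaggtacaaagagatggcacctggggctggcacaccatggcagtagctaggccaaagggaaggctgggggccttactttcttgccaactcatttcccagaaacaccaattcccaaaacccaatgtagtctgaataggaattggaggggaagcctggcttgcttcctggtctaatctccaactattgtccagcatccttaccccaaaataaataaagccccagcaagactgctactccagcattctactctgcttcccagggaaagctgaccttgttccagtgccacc
Cd79a: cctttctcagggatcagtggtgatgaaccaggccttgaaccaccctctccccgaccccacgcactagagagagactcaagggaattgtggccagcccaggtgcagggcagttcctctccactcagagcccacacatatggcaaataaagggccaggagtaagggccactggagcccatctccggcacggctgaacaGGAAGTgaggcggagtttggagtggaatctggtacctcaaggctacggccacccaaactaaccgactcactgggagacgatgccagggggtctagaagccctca
Il7r: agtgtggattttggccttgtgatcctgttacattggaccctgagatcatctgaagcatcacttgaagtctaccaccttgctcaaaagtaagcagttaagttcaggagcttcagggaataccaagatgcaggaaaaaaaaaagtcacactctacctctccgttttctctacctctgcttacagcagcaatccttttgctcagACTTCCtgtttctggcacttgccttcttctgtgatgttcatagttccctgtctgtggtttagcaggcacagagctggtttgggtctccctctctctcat
On both strands 5 motifs were searched, and GGAAGT was kept for display after the counts of all 5 had been seen. Each of these windows holds 1 match, and they were picked for that: of 7 genes looked at, 4 had a match (the other was Ptprc), and Coro1a, Cd22 and Pou2af1, leukocyte and B cell genes, had none. GGAAGT was in a window of 7175 of 27025 genes in all (26.5%), of 10 of the 15 B lymphocyte genes with a window, of 6 of 11 T lymphocyte genes and of 12 of 17 genes shared by leukocytes. It was also in a window of 19 of 38 cytosolic ribosomal protein genes, whose median difference between the classes was 0.19. The motifs CAGGAAG and GAGGAAGT, which overlap it, were in a window of 4 and 2 of the 15 B lymphocyte genes, against 14.8% and 3.69% of all genes. The octamer ATTTGCAT was in 2 of 15, against 1.97% of all genes, and a site of the factor NF-kappa B, 10 letters long, in 0 of 15, against 0.174%. A match is a description of the letters and not a bound site.

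T lymphocyte genes stood nearly as far apart as B lymphocyte genes. Of 14 tested, 11 were at least 2-fold higher in node-high arrays, with a list median of 1.70 over all arrays and 1.32 in the earlier runs. Cd3g, a chain of the T cell receptor complex, had signals of 52.7, 437.4 and 910.0 on node-high arrays, against 14.9, 50.9 and 118.1 on node-low arrays. The groups overlapped through the node-high array AL 8, at 52.7. Il7r separated them fully, with 210.9, 603.1 and 1287.5 on node-high arrays, against 60.5, 103.0 and 147.3 on node-low arrays. Lat, the adaptor that carries the T cell receptor signal, differed by 3.32 ± 0.27, and Ms4a4b, a membrane protein of T cells, by 3.91 ± 0.30. A further 16 T cell genes were too dim for the filter, and 12 of those were at least 2-fold higher in node-high arrays. Chosen from them after their values were seen, Cd3d had signals of 118.6, 662.0 and 1211.3 on node-high arrays, against 4.4, 14.1 and 61.5 on node-low arrays. Ccr7, the receptor by which naive T cells and dendritic cells home to nodes, had 10.5, 184.4 and 497.9 on node-high arrays, against 3.4, 5.95 and 13.9 on node-low arrays.

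Genes shared by leukocytes followed the same order. Of 22 tested, 19 were 2-fold higher in node-high arrays, with a median of 1.59, and all 22 differences were positive. Ptprc, the leukocyte phosphatase CD45, had signals of 499.2, 2231.3 and 5111.4 on node-high arrays, against 88.1, 263.6 and 703.8 on node-low arrays. Coro1a, an actin regulator of blood cells, differed by 3.44 ± 0.30, and Cd52, a small surface glycoprotein of lymphocytes, by 2.88 ± 0.20. Of 8 genes of natural killer and cytotoxic cells, 3 were 2-fold higher, among them the chemokine Ccl5, at 541.7, 1107.6 and 3130.5 on node-high arrays, against 14.9, 164.7 and 307.6 on node-low arrays. Fewer cells of a type and less RNA per cell cannot be told apart in such bulk samples.

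Of 7 antibody and plasma cell genes tested, 2 were 2-fold higher. Ighm, the heavy chain of IgM that naive B cells carry, had signals of 1028.8, 4180.7 and 10602.4 on node-high arrays, against 215.9, 423.6 and 671.7 on node-low arrays. Jchain, which links IgM and IgA multimers, had 114.5, 642.5 and 1994.2 on node-high arrays, against 85.4, 146.2 and 234.8 on node-low arrays, and its groups overlapped. The other 5 had smaller differences of either sign, with Xbp1 at -0.39 ± 0.11, Prdm1 at 0.31, Sdc1 at -0.07, Derl3 at -0.26 and Irf4 at -0.02. Of the germinal centre list only Bcl6 and Fas passed the filter, and their differences were 0.58 ± 0.15 and 0.16 ± 0.17. Probe sets named for antibody or receptor segments, such as Igkv8-30 at 3.19 ± 0.30 and Trbv1 at 3.28 ± 0.21, may also take up RNA of near-identical segments, so those names are uncertain.

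Genes of antigen presentation by MHC class II were higher, and those of class I much less so. The median difference over 8 class II genes was 1.02, with 4 of 8 at 2-fold (0.69 and 1 of 8 in the earlier runs), and over 9 class I genes it was 0.13. H2-Aa, a class II chain, had signals of 3707.6, 7504.6 and 12397.1 on node-high arrays, against 1300.8, 2731.4 and 8536.1 on node-low arrays, so the classes overlapped. H2-Oa, part of the modulator H2-O that B cells carry, did not overlap, with 201.8, 333.2 and 815.9 on node-high arrays, against 11.6, 92.8 and 165.3 on node-low arrays. Among the stromal genes, 2 of 7 tested were 2-fold higher over all arrays and none in the earlier runs. Cxcl13, which draws B cells into follicles, had 411.9, 909.4 and 1411.2 on node-high arrays, against 240.8, 343.9 and 588.8 on node-low arrays. Its difference was 1.09 ± 0.15 over all arrays and 0.58 within the earlier runs. Vcam1, an adhesion molecule of vessels and follicular dendritic cells, differed by 1.10 ± 0.16 over all arrays and by 0.92 within the earlier runs.

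Macrophage genes differed less. Their median difference was 0.36 over 14 genes and 0.02 in the earlier runs, and 2 of 14 were 2-fold higher over all arrays and none in the earlier runs. Lyz2, a lysozyme of myeloid cells, had signals of 1172.8, 4638.0 and 6642.4 on node-high arrays, against 400.7, 1618.8 and 3593.1 on node-low arrays. Cd209b, a lectin of sinus and marginal zone macrophages, had 15.9, 689.3 and 1513.8 on node-high arrays, against 11.6, 20.4 and 186.4 on node-low arrays. Its lowest node-high array therefore sat within the node-low range. The difference of Lyz2 was 1.15 over all arrays and 0.47 within the earlier runs. Marco, a scavenger receptor of sinus macrophages that was too dim for the filter and was chosen after its values were seen, had 5.9, 948.2 and 1437.0 on node-high arrays, against 5.4, 10.4 and 16.2 on node-low arrays. The 4 listed sinus macrophage genes that passed the filter had a median difference of 0.28, and 0.14 in the earlier runs. None of these 4 was 2-fold higher. Neutrophil, mast cell and red blood cell lists had medians of 0.29, -0.12 and 0.16. All 22 proliferation genes tested were higher in node-high arrays, with a median of 0.44, and the topoisomerase Top2a differed by 1.04 ± 0.19. With each array centred on its median, 21 of the 22 were higher and the list median was 0.31.

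No gene separated all 15 node-high arrays below all 22 node-low arrays, whereas 27 genes (0.291%) separated them above. Of those 27, 20 were in the immune and node lists and 7 were in no list: B3gnt5, Ifi209, Igkv8-30, Limd2, Lrmp, Prkcb and Trbv1. Leaving out the node-high array CR 7 gave 45 such genes. Of the 149 genes at least 2-fold higher, 64 were in the immune and node lists, 5 in other lists and 80 in none. The lists were chosen with earlier results of these data known. The share of all genes tested that lies in them is not given, so these counts are a description only.

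**Figure D2:**
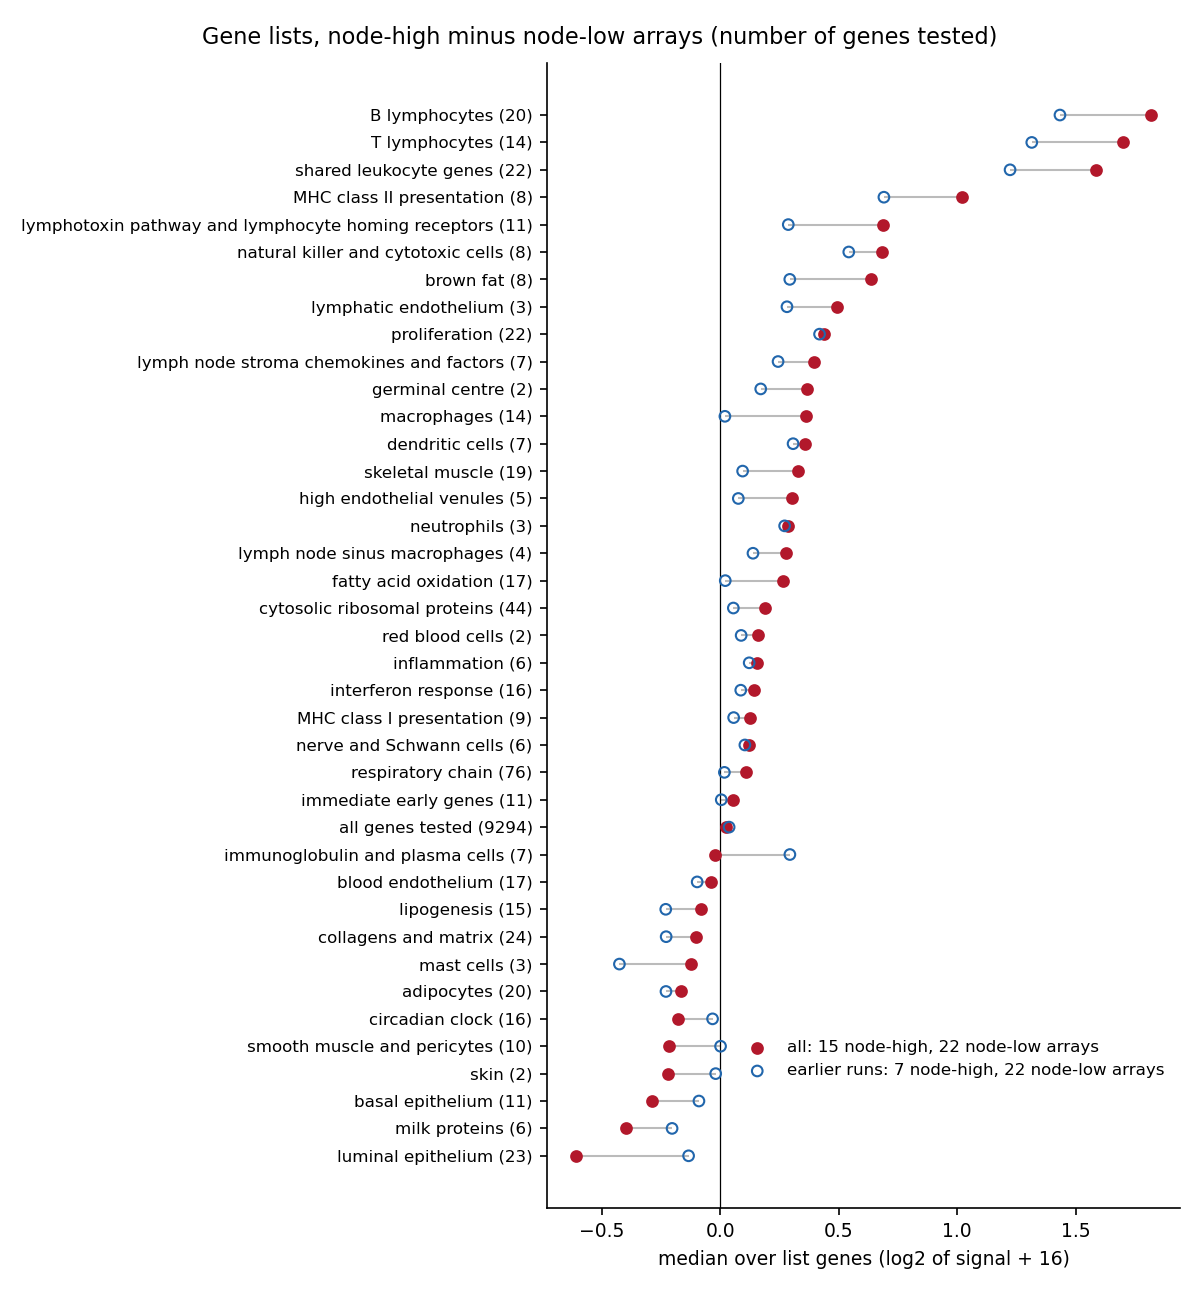
Median difference between node-high and node-low arrays for each gene list, on the log2(signal + 16) scale, over all arrays (filled) and over the earlier runs (open), with the number of genes tested in brackets. B, T and shared leukocyte genes lie at 1.82, 1.70 and 1.59 over all arrays, and luminal epithelium lies lowest at -0.61 over all arrays and -0.13 over the earlier runs.

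Genes of the gland's own epithelium were lower in node-high arrays, and most of that difference lay in the fourth run. All 23 luminal genes tested had a negative difference, with a median of -0.61 (22 of 23 without the arrays of high Gapdh ratio), while in the earlier runs 16 of 23 were negative and the median was -0.13. Epcam, an adhesion molecule of epithelial cells, had signals of 163.4, 574.8 and 1586.4 on node-high arrays, against 513.3, 1560.0 and 3158.3 on node-low arrays, and the classes overlapped widely. Its difference was -1.17 ± 0.27 over all arrays, -0.67 within the earlier runs and -0.60 with the run as a block. The largest negative difference was that of Agt, the precursor of angiotensin, at -1.49 ± 0.43 over all arrays and -0.95 within the earlier runs. Hoxc8, a homeobox gene of the trunk, had 135.3, 347.8 and 843.1 on node-high arrays, against 250.4, 885.9 and 1252.9 on node-low arrays. With the run as a block 2 genes were 2-fold lower, against 19 without it. Leaving out the node-high array AL 8, AL 9, CR 7 or CR+EX 1 moved that count of 19 by over 1.5 times, to between 12 and 34.

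Fat genes went in different directions. The 20 adipocyte genes had a median difference of -0.17 with 13 of 20 negative, and in the earlier runs of -0.23 with 18 of 20 negative. Lep, the hormone leptin, was the 1 member 2-fold lower, with 15.3, 203.4 and 1424.9 on node-high arrays, against 40.3, 400.1 and 1613.2 on node-low arrays. Adipoq, the hormone adiponectin, was at -0.01 ± 0.11. All 8 brown fat genes were higher in node-high arrays, with a median of 0.64 over all arrays and 0.29 in the earlier runs. Ucp1, the uncoupling protein of brown fat, had 6476.4, 14062.0 and 31661.1 on node-high arrays, against 1211.0, 7619.2 and 13425.3 on node-low arrays. The 19 skeletal muscle genes were all higher, with a median of 0.33 over all arrays and 0.09 in the earlier runs. With quantile normalisation their median was 0.12 and 2 of 19 were negative.

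The quantity of node signal varied widely within the node-high glands, and this range was used to ask which genes went with it. The mean of Cd79b and Ms4a1 spanned 2.94 log2 units over the 15 arrays. Each gene was regressed on that mean with diet as a factor (limma, 10 residual degrees of freedom), and the slope is the log2 change per log2 unit of the marker mean. The markers are among the genes by which the arrays were chosen, so the slopes describe the range within these 15 glands only. Genes that are dim on node-low arrays, such as Glycam1 and Cd209b, passed the filter on low signal through their node-high values. Over 9292 genes, 973 had a slope past an adjusted p of 0.05 (10.5%), 525 rising (5.65%) and 448 falling (4.82%). With a term for the fourth run in the fit, 146 did (1.57%), 117 rising (1.26%) and 29 falling (0.312%). Without the 2 node-high arrays of high Gapdh ratio, 202 did. Centred on each array's median, 25.3% of the calls were rising, against 54% as deposited. The count ranged from 292 without AL 8 to 1338 without CR 7, and leaving out AL 9 or AL+EX 6 also moved it by over 1.5 times.

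T cell, MHC class II and shared leukocyte genes rose with the B cell markers. Of the 14 T lymphocyte genes 11 rose and none fell, and with the term for the fourth run 8 of 14 rose. The median T lymphocyte slope was 0.56 over all 15 arrays, 0.72 within the fourth run and 0.64 within the earlier runs, where such within-run slopes have no diet factor. Cd3g rose by 1.05 ± 0.15 per unit (limma, adjusted p = 0.000416) and Ms4a4b by 1.02 ± 0.12 (limma, adjusted p = 6.45e-05). All 8 class II genes rose, and 3 of 8 did with the term for the fourth run. Cd74, the invariant chain that guides class II molecules, rose by 0.67 ± 0.07 (limma, adjusted p = 5.05e-05). Of 22 shared leukocyte genes 21 rose, and 14 did with that term. Without the 2 arrays of high Gapdh ratio, 9 of the 14 T cell genes, 7 of the 8 class II genes and 14 of the 22 shared leukocyte genes rose.

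Glycam1 rose by 1.11 ± 0.11 per unit (limma, adjusted p = 3.4e-05), and by 0.98 ± 0.19 with the term for the fourth run (adjusted p = 0.0162). Its slope was 1.46 within the fourth run and 0.93 within the earlier runs. Over the 15 node-high arrays its correlation with Cd79b was r = 0.951 (permutation p = 1e-05, the smallest that 100000 draws can give, adjusted p = 0.00012) and Spearman's rho was 0.946. It was 0.919 without the 2 arrays farthest from the median of Cd79b, 0.960 in the fourth run and 0.904 in the earlier node-high arrays. This is 1 of 24 relations examined, 12 genes in each class, of which 5 passed an adjusted p of 0.05, Glycam1, H2-Aa, Cd3g, Lyz2 and Krt14 in node-high arrays. No correlation had a diet factor, so each takes in differences between diet groups. The arrays were chosen by B lymphocyte genes such as Cd79b, so the node-high correlations also describe the range within these 15 glands only. Among node-high arrays, the medians in restricted and unrestricted glands were 597.0 and 1397.6 for Cd79b, and 3123 and 5541 for Glycam1. The markers are dim on node-low arrays, so a node-low relation says little. With Ms4a1 in place of Cd79b 7 of 24 passed: these 5, Cxcl13 in node-high arrays, and Ckm, a muscle creatine kinase, in node-low arrays at r = -0.502 (permutation p = 0.0143, adjusted p = 0.0491), where Spearman's rho of -0.447 did not pass (adjusted p = 0.134). For H2-Aa, r was 0.935 with rho 0.893, and it was 0.980 in the fourth run and 0.799 in the earlier runs. For Lyz2, r was 0.775 with rho 0.879, and it was 0.958 in the fourth run and 0.473 in the earlier runs. Cxcl13 had r = 0.631 with Cd79b (permutation p = 0.0129, adjusted p = 0.0516) and r = 0.653 with Ms4a1 (permutation p = 0.00961, adjusted p = 0.0384). Its r with Cd79b was -0.295 in the fourth run and 0.326 in the earlier runs. Madcam1 did not pass, at r = 0.418 with Cd79b (permutation p = 0.12, adjusted p = 0.291). Col1a1, a fibrillar collagen, had r = -0.0015 (permutation p = 0.996).

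**Figure D3:**
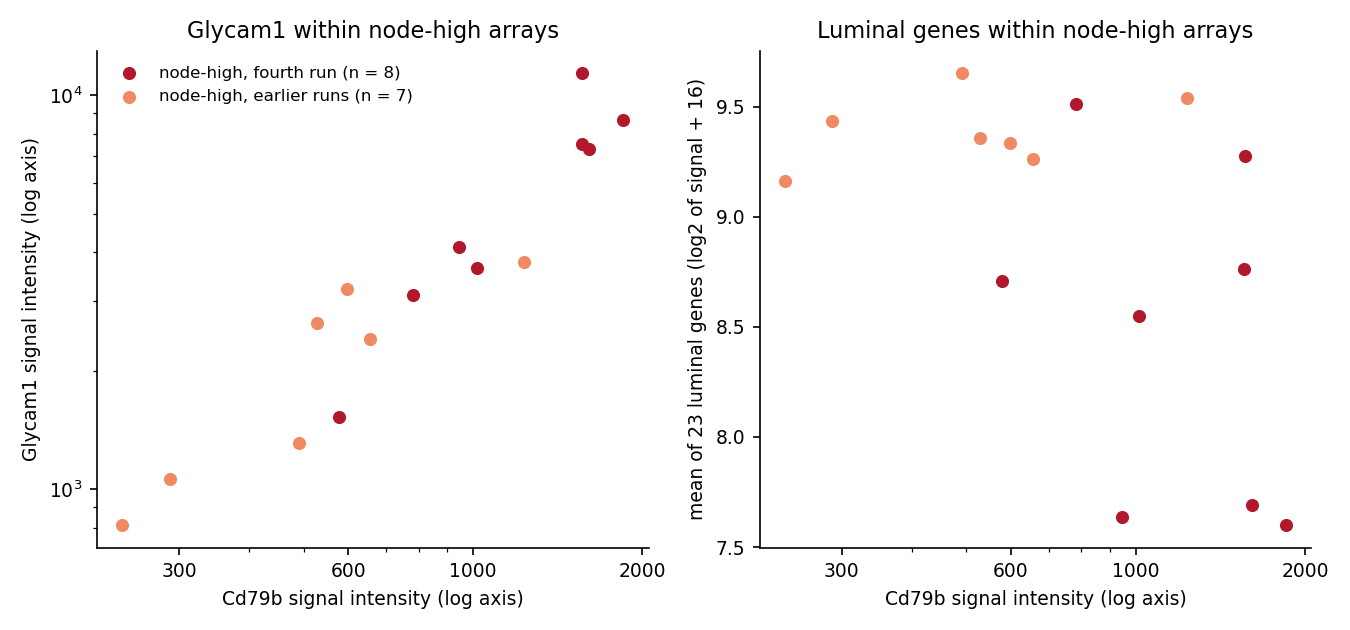
Node-high arrays only: Glycam1 signal (left, log axis) and the mean of 23 luminal genes on the log2(signal + 16) scale (right) against Cd79b signal on a log axis, with the fourth run and the earlier runs in different colours. Glycam1 follows Cd79b at r = 0.951, and the 3 lowest luminal means belong to fourth-run glands.

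Macrophage genes rose too. Of 14 macrophage genes 9 rose, and 5 did with the term for the fourth run. Their median slope was 0.44 over all node-high arrays and 0.63 with that term, where Lyz2 rose by 1.09 ± 0.14 (limma, adjusted p = 0.00241). Fitted within each set of runs, with no diet factor, it was -0.12 in the fourth run and 0.29 in the earlier runs. Cd209b rose by 2.12 ± 0.24 per unit (limma, adjusted p = 6.19e-05) and by 2.64 ± 0.39 with the term (adjusted p = 0.00376), with a slope of 0.28 within the fourth run and 1.69 within the earlier runs. Cfp, the complement factor properdin, rose by 1.29 ± 0.17 (limma, adjusted p = 0.000237), with -0.21 within the fourth run and 0.68 within the earlier runs.

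Luminal genes fell with the B cell markers in the fit without a term for the fourth run, and none passed with it. Of 23 genes 5 fell, namely Elf5, Foxa1, Gata3, Prom1 and Dsp, and none did with the term for the fourth run. Elf5, a transcription factor of luminal progenitors, fell by 1.08 ± 0.18 per unit on the log2 scale (limma, adjusted p = 0.00169), with -0.88 within the fourth run and -0.16 within the earlier runs. The median luminal slope was -0.52 over all node-high arrays, -0.21 with the term, -0.55 within the fourth run and 0.12 within the earlier runs. Krt14, a keratin of basal cells, had r = -0.643 with Cd79b (permutation p = 0.00891, adjusted p = 0.0428), and Spearman's rho of -0.589 did not pass (adjusted p = 0.11). Adipocyte genes had a median slope of -0.02, and with the term for the fourth run Plin4, Pparg and Dgat2 fell, a coat protein of lipid droplets, the master regulator of fat cells and an enzyme of triglyceride synthesis. Of 8 brown fat genes 4 rose without that term and none with it.

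The same regression in node-low glands called no gene (limma, 557 or 5.99% at an unadjusted p under 0.05). The markers are dim there, with medians of 56.8 for Cd79b and 107.1 for Ms4a1, so this says nothing about node-low glands.

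The fourth run was set against the earlier runs within the node-high glands, with diet as a factor. With all 15 arrays 548 genes differed (limma, adjusted p under 0.05, 5.9%), 237 higher (2.55%) and 311 lower (3.35%) in the fourth run, while 2392 (25.7%) had an unadjusted p under 0.05. The count was unstable. Without CR+EX 1 and AL 8, which have high Gapdh ratios and lie in the earlier runs, 9 genes differed, and without CR+EX 1 alone 42 did. Leaving out AL 3, AL 8, AL 9, AL 10, AL+EX 1, AL+EX 6, AL+EX 8, AL+EX 9, CR 8, CR+EX 1 or CR+EX 8 moved the count by over 1.5 times, up to 1013 without AL 3. Median centring gave 1005 genes, 15% of them higher, against 43.2% as deposited.

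The 20 B lymphocyte genes, by which the arrays were chosen, had a median difference of 0.79 between the fourth and the earlier runs, given as a description. Luminal genes were lower in the fourth run (5 of 23 by the test with all arrays, with a median of -1.01), and none passed without CR+EX 1 and AL 8. Among antibody genes, Ighm had signals of 3071.2, 5211.1 and 10602.4 in the fourth run, against 1028.8, 1445.6 and 4180.7 in the earlier node-high arrays. Elf5 had 59.7, 148.6 and 320.2 in the fourth run, against 374.2, 457.6 and 991.6 in the earlier node-high arrays, so the runs did not overlap. Foxa1, a pioneer factor of hormone-responsive cells, had 162.4, 388.0 and 1108.3 in the fourth run, against 762.8, 1111.4 and 2832.4 in the earlier node-high arrays. Brown fat and skeletal muscle genes were higher, with 4 of 8 and 8 of 19 past the test, and none did so without those 2 arrays. With quantile normalisation the skeletal muscle median was -0.02, against 0.49 as deposited, so its direction is not settled.

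**Figure D4:**
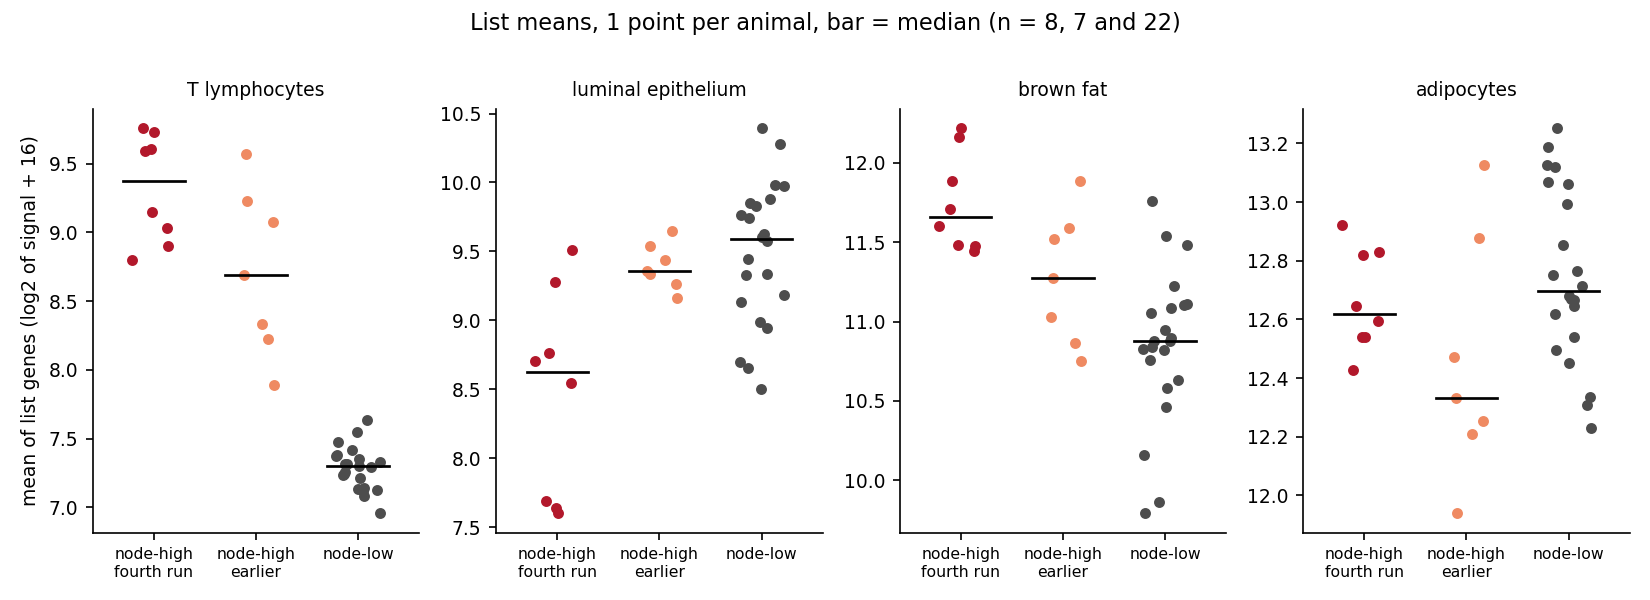
Mean of the genes of 4 lists on the log2(signal + 16) scale, with 1 point per animal and bars at the medians, for fourth-run node-high, earlier node-high and node-low arrays. T lymphocyte means of both node-high sets are 7.89 or more, against at most 7.63 in node-low arrays, while luminal means below 8.50 occur in the fourth run and in no other arrays.

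The study asked what restriction and exercise do to gene expression in the gland, so the effect of restriction was taken within each node class (limma, 1 fit over all 37 arrays, 29 residual degrees of freedom). In node-high glands, 7 restricted against 8 unrestricted, 146 genes changed (adjusted p under 0.05, 1.57%), 98 higher (1.05%) and 48 lower (0.516%). In node-low glands, 11 restricted against 11 unrestricted, 262 changed (2.82%), 113 higher (1.22%) and 149 lower (1.6%). The difference between the classes passed for no gene (limma, 487 or 5.24% at an unadjusted p under 0.05), for 2 genes with the run as a block and for 38 with array weights. In simulated data with the same design a difference of 1 log2 unit between the classes was found for 71.5% of 200 changed genes and one of 0.5 for 0.5%. The simulation gave both classes the same spread for each gene, so these shares may not hold where the spread differs by class. Fitted on node-high glands alone, with their own spread, 31 genes changed, and 497 did on node-low glands alone. With the run as a block 599 changed in node-high and 739 in node-low glands, and with array weights 281 and 660 did. Quantile normalisation gave 223 and 160. Leaving out single arrays gave 58 (without AL 10) to 245 (without CR 1) in node-high glands and 107 (without AL+EX 2) to 420 (without AL+EX 5) in node-low glands. Arrays that moved the node-high count by over 1.5 times were AL 9, AL 10, AL+EX 6, AL+EX 7, CR 1, CR 7, CR 9 and CR+EX 1, and for the node-low count AL+EX 2, AL+EX 5, AL+EX 7, CR 4, CR 5, CR+EX 3, CR+EX 4, CR+EX 6 and CR+EX 7. Median centring made 88.7% of the node-high calls and 71.4% of the node-low calls higher, against 67.1% and 43.1% as deposited, and quantile normalisation made 56.2% of the node-low calls higher.

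Genes called in both classes ran the same way. There were 51 of them, which are 34.9% of the node-high calls and 19.5% of the node-low calls, and all 51 had the same direction. Of the 146 node-high calls 140 had the same sign in node-low glands, against 65.1% of all genes. The 2 comparisons share no array, though in this fit they share 1 estimate of the spread. Enpep, an aminopeptidase that cleaves angiotensin, had the largest rise in node-high glands. Its signal was 981.4, 2924.6 and 4336.8 in restricted node-high glands, against 295.8, 746.8 and 1032.1 in unrestricted ones, a rise of 1.80 ± 0.26 (limma, adjusted p = 0.000288). In node-low glands the rise was 1.11 ± 0.22 (adjusted p = 0.00482). Hcar2, the receptor of fat cells for the ketone body beta-hydroxybutyrate, rose by 1.78 ± 0.33 in node-high glands (limma, adjusted p = 0.00303) and by 1.10 ± 0.27 in node-low glands (adjusted p = 0.0218). Aacs, which activates acetoacetate for lipid synthesis, rose by 1.32 ± 0.23 and 0.89 ± 0.19 in node-high and node-low glands (limma, adjusted p = 0.00136 and 0.0086).

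The same 3 clock genes were called in both classes. Of 16 clock genes tested, Nfil3 rose and Nr1d1 and Dbp fell in each. Nr1d1, the repressor REV-ERB alpha, had a median signal of 176.5 and a highest of 345.0 in restricted node-high glands, against 554.8, 771.4 and 1225.3 in unrestricted ones, with no overlap. It fell by 2.23 ± 0.34 on the log2 scale in node-high glands (limma, adjusted p = 0.000387) and by 1.42 ± 0.28 in node-low glands (adjusted p = 0.00506). Lipogenic genes rose in both: Acly, Elovl6 and Me1, enzymes of fatty acid synthesis and its NADPH supply, in node-high glands, and these and Acss2 in node-low glands. The list median was 0.33 in each class.

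Some lists differed in which class called them, though no gene passed the test of the difference. In node-low glands 5 of 23 luminal genes fell (Krt8, Cldn4, Cd24a, Spint1 and Wfdc2), with a median of -0.70 and all 23 negative. With median centring 1 of these fell. In node-high glands none passed and the luminal median was 0.04. Defb1, an antimicrobial peptide of epithelia, fell by 2.33 ± 0.42 on the log2 scale in node-low glands (limma, adjusted p = 0.0019), while in node-high glands its change of -1.21 ± 0.51 did not pass (adjusted p = 0.215). Its change differed between the classes by 1.11 (adjusted p = 0.937). Col6a1 and Col6a2, chains of collagen VI, rose in node-high glands, where the median of 24 matrix genes was 0.66, and none of the 24 passed in node-low glands, where it was 0.02. Fndc1, a protein with fibronectin domains, rose by 1.45 ± 0.29 in node-high glands (limma, adjusted p = 0.0057) and was at 0.31 ± 0.24 in node-low glands (adjusted p = 0.539). The 3 node-high minus node-low differences with the smallest p were those of Il1r2, Trav9d-3 and Prkab1, at 1.35, -1.48 and 0.57, each with an adjusted p of 0.593.

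Lymphocyte genes themselves had lower values in restricted node-high glands. The B lymphocyte mean was 7.66, 8.50 and 8.91 in restricted node-high glands, against 8.25, 9.18 and 9.57 in unrestricted ones, with a list median of -0.68. The arrays were chosen by these genes, so this is a description with no test. Bach2, a transcription factor of B and T cells, had signals of 92.4, 157.8 and 330.9 in restricted node-high glands, against 299.0, 381.0 and 471.4 in unrestricted ones. It fell by 1.21 ± 0.21 on the log2 scale (limma, adjusted p = 0.00133), and its change in node-low glands was -0.27 ± 0.17 (adjusted p = 0.438). Il7r fell by 0.87 ± 0.20 (limma, adjusted p = 0.0205), the only 1 of 14 T lymphocyte genes that passed. Cytip, an adhesion regulator of leukocytes, fell by 0.74 ± 0.14 (limma, adjusted p = 0.00394), the only 1 of 22 shared leukocyte genes that passed. Of all genes tested, 0.516% fell. Il7r did not pass when node-high glands were fitted alone. The part of the lower B lymphocyte mean in these changes was not tested. Bach2 is also a gene of B cells, whose signal was used to choose the arrays, so its p-value carries that limit. Cd79b, a marker of the class, was at -0.89 ± 0.33, also as a description. Glycam1 did not pass, at -1.11 ± 0.34 (limma, adjusted p = 0.0777).

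**Figure D5:**
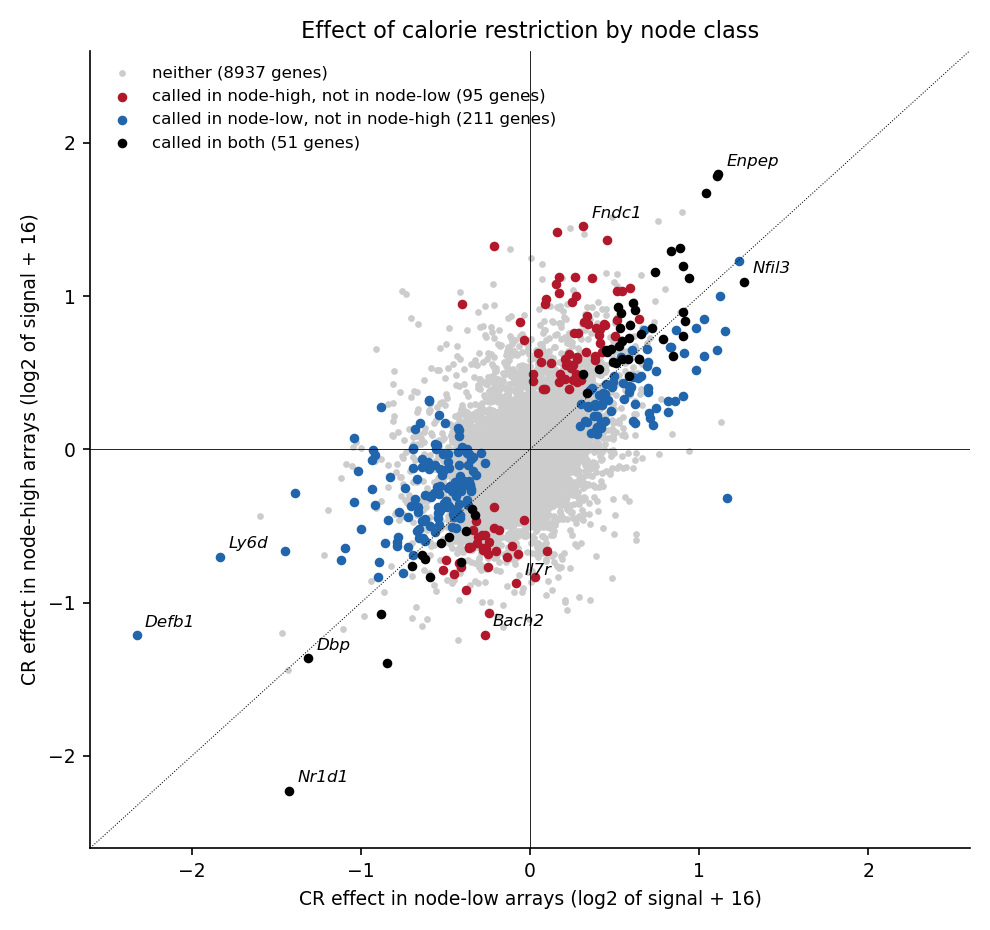
Effect of calorie restriction on each of the 9294 genes in node-high glands (vertical axis) against node-low glands (horizontal axis), on the log2(signal + 16) scale, with genes past an adjusted p of 0.05 in either or both classes coloured and the line of equal effects dotted. The 51 genes called in both changed in the same direction in each class, and Bach2 and Il7r lie near 0 on the horizontal axis.

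With node class as a factor and all 37 arrays in 1 fit, restriction changed 984 genes (limma, adjusted p under 0.05, 10.6%), 457 higher (4.92%) and 527 lower (5.67%), while 2385 (25.7%) had an unadjusted p under 0.05. Without node class it changed 813, and the 984 held all 813 of them. With the mean of Cd79b and Ms4a1 as a covariate in its place, 1008 genes passed. Median centring made 72% of the calls higher and quantile normalisation 56.7%, against 46.4% as deposited. Of the 24 matrix genes 7 rose, and of 15 lipogenic genes 7 rose.

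With the running wheel no gene passed the test in either class: none of 9294 passed in node-high glands, 7 with a wheel against 8 without (limma, 485 or 5.22% at an unadjusted p under 0.05), and none in node-low glands, 11 against 11 (limma, 130 or 1.4% at an unadjusted p under 0.05). Without the arrays of high Gapdh ratio 2 genes passed in node-high glands, and without CR+EX 1 alone 2 did. The smallest p in node-high glands was that of Evpl, a protein of the cell envelope in stratified epithelia, at -0.95 ± 0.20 (limma, adjusted p = 0.381), followed by Mrps30 at 0.46 ± 0.10 and Dnajb1 at -0.49 ± 0.12. The wheel effect differed between the classes for no gene (limma, 221 or 2.38% at an unadjusted p under 0.05).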

How the data were processed

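Gene expression was measured in pooled thoracic mammary glands of 37 mice with 1 Affymetrix array each. The deposited values are signal intensities on a linear scale, which the authors had scaled per array. GCOS version 1 is named per the submitters' processing notes, and the sources used here give neither the signal algorithm nor any array batches. Of 22690 probe sets, 20380 named 1 gene, 691 several, 1555 none and 64 were controls, by the platform's table updated through Entrez IDs, of which 29 had no match. The brightest probe set stood for each of 12393 genes. Signals became log2(signal + 16), and the 25% of genes with the lowest mean (up to 6.71, a signal of 88.7) were dropped, so 9294 were tested.

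Differences, errors (± SE) and tests came from limma 3.58.1 in R 4.3.3, with variances that follow the mean signal, two-sided p-values and Benjamini-Hochberg adjustment over all genes within each comparison. Node-high against node-low used diet group as a factor and gave no p. Restriction and wheel effects used 8 means, diet group by node class. Slopes left out Cd79b and Ms4a1, and those within the fourth or earlier runs had no diet factor and no test. Correlations used 100000 permutations in scipy 1.17.1, with no diet factor. With replicates known only as separate animals, p-values cover the spread between animals, and the number of arrays limits the precision. The restriction contrasts, the node-high slope and the fourth-run contrast were tested on simulated data. The wheel contrasts, the node-low slope and the slope with a run term were not.

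The members and the 38 gene lists were chosen with earlier results of these data known. A rule for genes to name took Cd79b and Ms4a1, the 10 largest differences each way and the correlated genes. It also took up to 4 genes per list past 2-fold, or else the 2 largest. From each tested comparison it took the 8 largest rises and falls, or else the 3 smallest p. Not all of these are given here, and others, such as Cytip, Col6a1 and Col6a2, were picked after their values were seen. Animal numbers within a run go up in the order AL, AL+EX, CR, CR+EX, so a run block cannot separate place in the run from diet. Alternatives were other pseudocounts (1 and 64), scalings, filters, probe set rules, array weights, robust variances, a run block, classes fitted apart and the removal of single arrays or of arrays with a Gapdh ratio above 2.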

Additional observations from a re-analysis of the deposited data

Results flagged for a closer look

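Dixon's test on sets of 7 or 8 node-high arrays found 5 sets with an array far from the others, and chance, at about 1 set in 20, gives about 6.1 over the sets examined. The Gapdh 3 prime to 5 prime ratio was 2.617 on CR+EX 1, against 1.319 on the next restricted node-high array, a gap of 0.695 of the range. It was 2.375 on AL 8, against 1.198 on the next unrestricted node-high array, a gap of 0.74 of the range. AL 8 was also lowest for Bdh1, a ketone body enzyme, at a signal of 115.8 against 247.0 on the next (0.575 of the range on the log2 scale). Chil1, a chitinase-like protein, was 11.6 on AL 9 and 129.0 on the next unrestricted node-high array (0.69 of the range). Slc22a4, a transporter of organic cations, was 47.6 on CR 8 and 136.4 on the next restricted node-high array (0.582 of the range).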

How the results depend on the processing

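Among the called values of named genes in the limma comparisons, none changed direction under the alternatives run. Values within the fourth run alone were not counted among these alternatives. There the slope of Cfp and the r of Cxcl13 with Ms4a1, for example, were negative. Of the 149 genes 2-fold higher in node-high arrays, 51 were left with the filter at 50%, and there were 97 with the run block and 95 in the first 3 runs. The 19 genes 2-fold lower became 40 with a pseudocount of 1, 6 with 64, 49 with median centring, 39 with quantile normalisation, 11 with the filter at 50%, 43 without the arrays of high Gapdh ratio, 2 with the run block, 11 in the first 3 runs, 127 within AL and 140 within AL+EX. The 27 genes without overlap became 9 with the filter at 50% and 45 without the arrays of high Gapdh ratio, and 284 within AL, 342 within AL+EX, 357 within CR and 343 within CR+EX, where fewer arrays must be separated. Restriction in node-high glands called 223 genes with quantile normalisation, 599 with the run block, 281 with array weights and 31 with the classes fitted apart, and in node-low glands 160, 739, 660 and 497. Its difference between the classes gave 2 genes with the run block and 38 with array weights. With class as a factor the run block gave 1749. The wheel effect in node-high glands gave 2 genes without the arrays of high Gapdh ratio. Slopes within node-high glands gave 602 genes with the mean of probe sets, 202 without the arrays of high Gapdh ratio, 146 with the run block and 579 with array weights. The fourth run against earlier runs gave 1005 with median centring, 348 with the mean of probe sets and 9 without the arrays of high Gapdh ratio. Leaving out single arrays gave 143 to 166 genes 2-fold higher, 12 to 34 lower and 27 to 45 without overlap, 58 to 245 and 107 to 420 for restriction in node-high and node-low glands, 0 to 1 for its difference, 765 to 1119 with class as a factor, 0 to 2 for the wheel in node-high glands, 292 to 1338 for slopes and 42 to 1013 for the fourth run. The cause was not tested. No paired analysis was possible because the labels give no replicate number that links animals of different groups. The slopes within the fourth run and the earlier runs were chosen after seeing the data. No detection calls were used here, so signals as low as those of Glycam1 in node-low glands set only that they are dim.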
